A study of Mus musculus with 3 samples.

Results

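The genes described here encode the machinery that shortens poly(A) tails and degrades mRNA. They were chosen by gene name alone, from the names that the array files give to their non-control probes: the Cnot, Pan, Parn, Btg, Tob, Zfp36, Pabpc, Pabpn, Dcp, Edc, Xrn, Exosc, Upf and Smg series. The rule found 56 genes, measured by 128 probes, among 27670 genes on the array. Of these 56 genes 40 were tested, through 49 probes, among 7254 genes tested in all, because a probe had to stand well above background in 2 or 3 pools of the same dye. A gene that is high in only 1 group can pass that filter through that group alone. The pattern also caught 4 genes that share the Zfp36 prefix but do not belong to the tristetraprolin family: Rnf115 (Zfp364 in the files), Zfp365, Zfp367 and Zfp369. Rnf115 and Zfp367 were tested, and counts are given with and without them where this matters.

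Cytoplasmic mRNA usually loses its poly(A) tail first, through the CCR4-NOT complex and the Pan2-Pan3 nuclease, then its cap, through Dcp1 and Dcp2, and is degraded from its 5′ end by Xrn1 or from its 3′ end by the exosome. Adaptors such as the Btg and Tob proteins and the zinc finger proteins of the Zfp36 family bring the deadenylase to chosen mRNAs, while Upf and Smg proteins mark transcripts with premature stop codons. In mammalian oocytes and early embryos this machinery clears stored maternal mRNA, and Btg4 and the Cnot6l deadenylase are known for that role in the mouse.

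The study compared mouse four-cell stage embryos from oocytes exposed to high hydrostatic pressure (HP) with embryos from control oocytes. HP oocytes were held at 20 MPa for 60 minutes at 37 °C, control oocytes were kept the same way without pressure, and oocytes of both groups were then fertilised by intracytoplasmic sperm injection (ICSI) and cultured to the four-cell stage. HP pools held 44, 30 and 37 embryos and control pools 36, 33 and 24 embryos in replicates 1, 2 and 3. No strain, age or genotype is given in the labels, and nothing in them says whether pools came from separate females, so p-values measure only the spread between 3 pairs of pools. Each pool gave 240 pg of amplified total RNA, and an HP pool and a control pool were hybridised together on each of 3 two-colour Agilent arrays. HP was always Cy5 and control always Cy3, so dye and treatment cannot be told apart in any ratio below. In such pools, less RNA per cell and fewer cells that hold the RNA cannot be told apart either.

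The array reads each gene through designed probes of 60 bases. The first 30 bases of 5 probes are shown, 5′ to 3′, because the largest ratios among the decay genes rest on them. The mm7 positions are those of the array files. AATAAA, the canonical polyadenylation signal, is in capitals.
Btg4: tataggaaggaagacttgaAATAAAtactc
Cnot6l: tcctattatattaggaaccaacattcacga
Cnot6: ctaggcagctcttgataggggtgatgagaa
Zfp36l1 (brightest probe): gtataagttctgtgacagtacagaaggaaa
Zfp36l1 (other probe): ctttgtgttggactgcaaattgagtttctt
The Btg4 probe lies at chr9:51098148-51098207 on the plus strand, with AATAAA starting at its base 20. The Cnot6l probe is at chr5:95290226-95290285 and the Cnot6 probe at chr11:49628405-49628464, both on the minus strand. The brightest Zfp36l1 probe is at chr12:78071039-78071098 and the other at chr12:78071105-78071166, also on the minus strand. Whether they fall in coding or untranslated sequence was not analysed here. Cnot6 and Cnot6l are paralogues, and their probes share no run longer than 6 bases on the same strand, or 5 on opposite strands. AATAAA was found in 2 of the 49 tested probes of decay genes (4.08%; Btg4 and Pabpc4) and in 1967 of all 41174 array probes (4.78%). Its reverse complement, TTTATT, was found in 3 of the 49 (6.12%) and in 1748 of all probes (4.25%).

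Signal was thin on every array. "Above background" below means the scanner software's call of well above background. Between 17.5% and 23.2% of spots were well above background in a channel, and none was saturated. In their ratios and HP pools, arrays 2 and 3 resembled each other more than either resembled array 1. Over all tested genes, the ratios of replicates 2 and 3 correlated at r = 0.65, against 0.23 and 0.22 for the pairs with replicate 1. Over the 40 decay genes the values were 0.53 for replicates 2 and 3, 0.40 for 1 and 2, and 0.09 for 1 and 3. These correlations run across genes, which are not independent replicates, and each array shares its dye orientation with the others. Among the HP pools, the log2 signals of replicates 2 and 3 differed with an SD of only 0.165 over the decay genes. The pairs with replicate 1 had SDs of 0.428 and 0.408. The control pools did not share this: their SD was 0.506 for replicates 2 and 3, 0.381 for 1 and 2, and 0.587 for 1 and 3. Because of the HP pools, counts and the larger ratios are also given with replicates 2 and 3 averaged and counted as 1. Of 10 marker genes of oocytes and early embryos 6 were tested, among them Zp3, Gdf9 and Dppa3, while Zp2, Nlrp5, Padi6 and Ooep were above background on no array. Among markers of other cells, 2 of 15 for cumulus cells (Amhr2 and Gja1), 1 of 8 for sperm (Prm1), 1 of 3 for blood (Hba-a1) and 0 of 4 for fibroblasts were tested, with log2 ratios between −0.04 and 0.14. Their part in the results was not tested.

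No decay gene changed at an adjusted p under 0.05 in limma's moderated test, and neither did any of the 7254 genes (0%). The lowest adjusted p was 0.175 among the decay genes, for Btg4, and 0.174 among all genes. At an unadjusted p under 0.05, 1 decay gene of 40 was lower in HP embryos (Cnot6), where 11.3% of all genes were lower, and 2 were higher (Btg4 and Cnot6l), where 7.25% of all genes were higher. Together these are 7.5% of the decay genes, beside 18.5% of all genes. Without Rnf115 and Zfp367 the share was 7.89% of 38. With replicates 2 and 3 counted as 1 it was 10% of the decay genes and 11.9% of all genes. The number of lower decay genes was 3 without replicate 1, 0 without replicate 2 and 2 without replicate 3, where 14.1%, 5.91% and 6.14% of all genes were lower.

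Most decay genes lay close to 0. Of the 40 genes, 24 had a mean log2 ratio of HP over control below 0 and 16 above, so 60% were below, beside 51.7% of all genes. Of those below 0, Cnot6, Cnot10, Zfp36l1, Tob1, Dcp2, Exosc8, Upf2 and Pabpn1 passed the filter through their control pools alone. Exosc9, also below 0, and Dcps, above it, passed through their HP pools alone. This split thus rests in part on genes that the filter admitted through 1 group. The 28 decay genes above background in both channels of all arrays had a median of −0.01, beside 0.01 over all such genes. The median of the 40 was −0.07, with quartiles at −0.19 and 0.08, beside a median of −0.01 and quartiles at −0.27 and 0.20 over all genes. Array by array the median of the decay genes was 0.00, −0.16 and −0.04. Lower on all 3 arrays were 10 decay genes, or 1 in 4, beside 25% of all genes, and higher on all 3 were 4, beside 23.2% of all genes. Among these 10, Cnot6, Tob1, Dcp2, Exosc8 and Pabpn1 had passed the filter through their control pools alone. The 3 HP signals lay entirely below the 3 control signals for 2 decay genes (Btg1 and Pabpn1), beside 13.2% of all genes, and entirely above them for 2, Btg4 among them, beside 13.3%. The ratio of a decay gene varied less from array to array than that of a typical gene, with a median SD of 0.202 beside 0.28. Their probes had a median log2 intensity of 6.97, beside 7.05 over all tested genes.

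**Figure D1:**
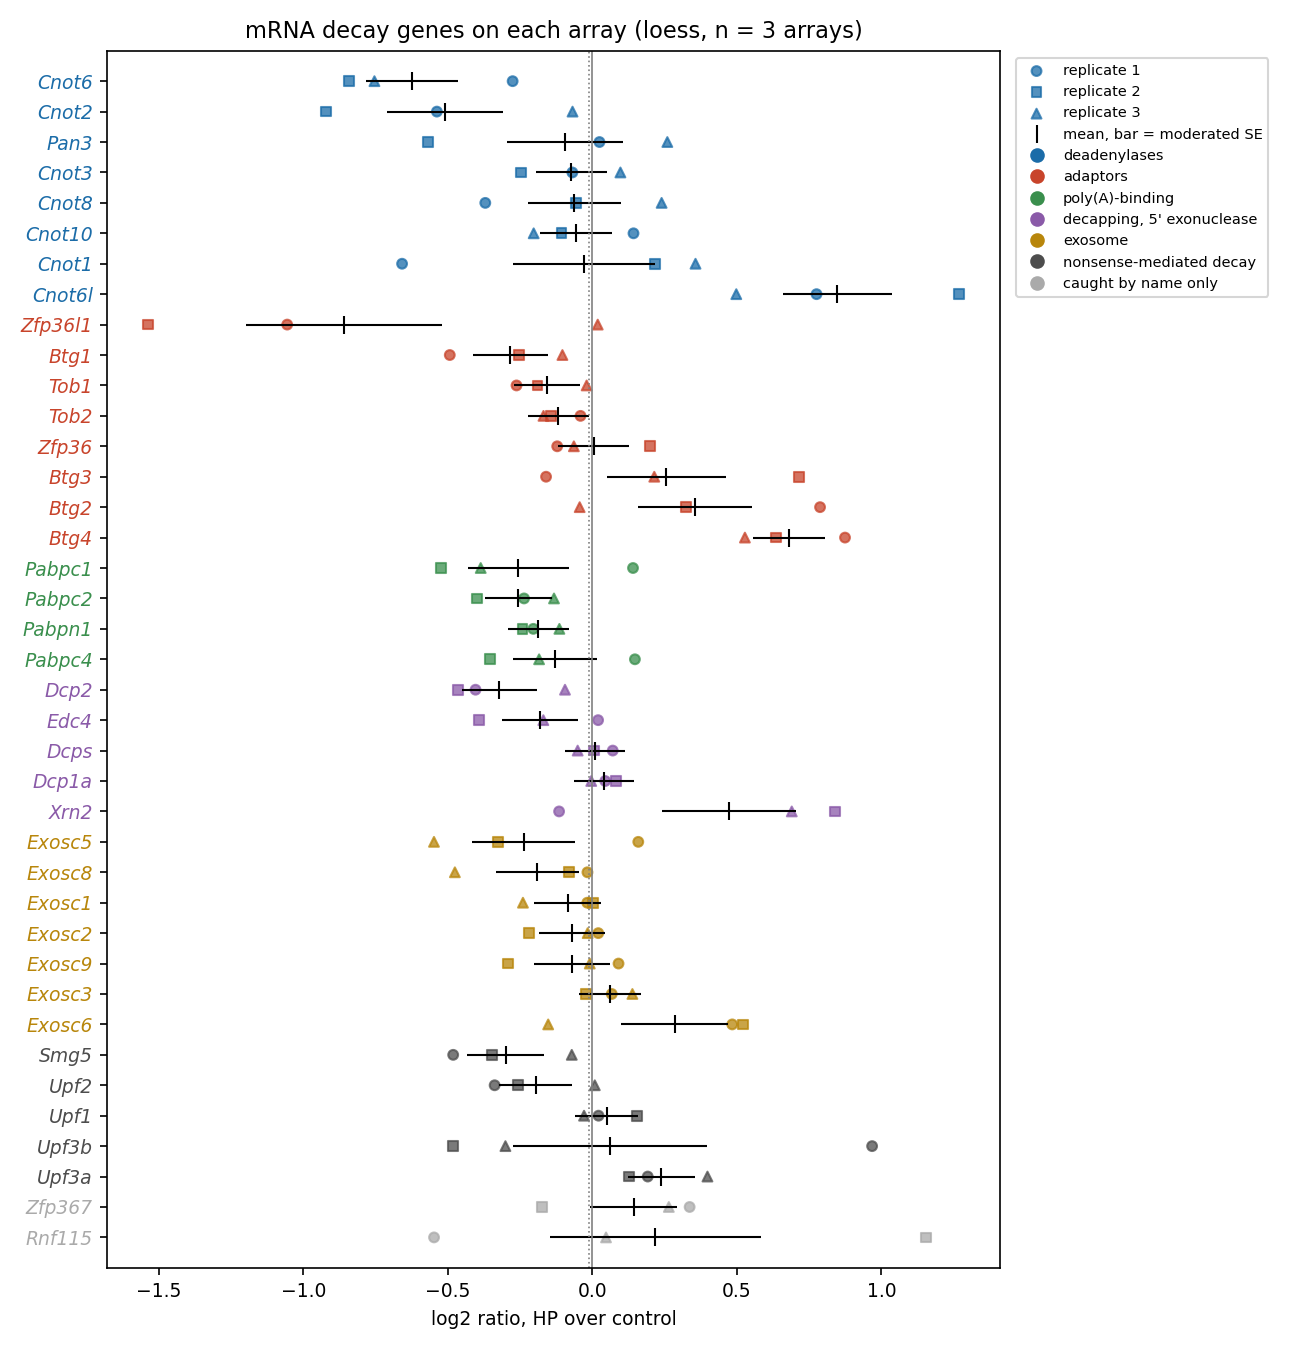
Log2 ratio of HP over control for 39 of the 40 tested decay genes (x axis, log2 units), with 1 symbol per array, a tick for the mean and a bar for the moderated standard error. Colours mark roles, and the dotted line is the median of all tested genes at −0.01. Cnot6 lies to the left and Cnot6l and Btg4 to the right on all 3 arrays.

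**Figure D2:**
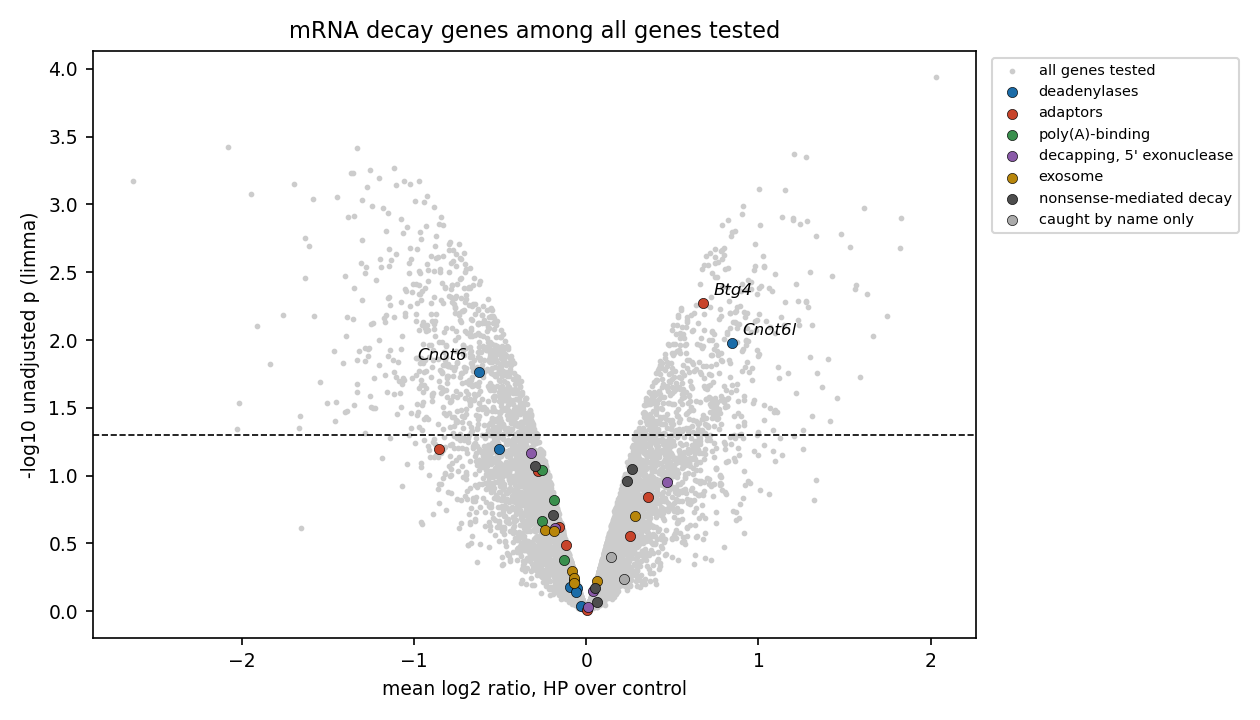
Mean log2 ratio of HP over control (x axis) against −log10 of the unadjusted limma p (y axis) for 7254 tested genes in grey and 40 decay genes in colour by role. The dashed line marks an unadjusted p of 0.05, and Btg4, Cnot6l and Cnot6 are the 3 decay genes above it.

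Among the deadenylase subunits the paralogues Cnot6 and Cnot6l, alternative catalytic subunits of the CCR4 type, stood on opposite sides. Cnot6l was higher in HP embryos on each array, with log2 ratios of 0.78, 1.27 and 0.50 on replicates 1, 2 and 3. Its log2 signals were 9.23, 10.25 and 10.47 in the HP pools and 8.45, 8.98 and 9.98 in the control pools. Each HP pool was thus above its own control, but the groups overlapped, because the third control pool was brighter than the first HP pool. The mean was 0.85 ± 0.19 (moderated SE, n = 3 arrays), or 1.80-fold, with a limma adjusted p of 0.189. Cnot6 was lower in HP embryos on each array, with log2 ratios of −0.28, −0.84 and −0.75. Its signals were 6.23, 6.42 and 6.80 in the HP pools and 6.50, 7.27 and 7.55 in the control pools, and the groups overlapped through replicate 1 of the controls. The Cnot6 probe was well above background in all 3 control pools and in no HP pool. The mean log2 ratio was −0.62 ± 0.16 (limma adjusted p = 0.199), or 1.54-fold lower in HP embryos, and it rests on dim HP signals. For such probes no pool of the dimmer group was called above background. Their signal there was still no lower than the lowest signal called above background in the same pool. The folds given for them are therefore those of the means and are not lower bounds. The log2 ratio of Cnot6l exceeded that of Cnot6 by 1.05, 2.11 and 1.25 on the 3 arrays. With replicates 2 and 3 counted as 1, Cnot6l was at 0.83 and Cnot6 at −0.54, with limma adjusted p-values of 0.414 and 0.438.

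The direction of Cnot6l depended on the scaling. When each array was only centred on its median, without loess, Cnot6l was at −0.03 and Btg4 at −0.0048, while the median of all genes moved to −0.39. Relative to that median they were higher by 0.36 and 0.39. Cnot6 was at −0.94 under median centring.

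The other subunits of CCR4-NOT were at or below 0. Cnot2, part of the module that holds the complex to its targets, had log2 ratios of −0.54, −0.92 and −0.07, with a mean of −0.51 ± 0.20 and an adjusted p of 0.292. Its signals were 7.97, 7.29 and 7.28 in HP pools and 8.51, 8.21 and 7.35 in control pools. The 3 HP pools spanned a range that took in the third control pool. With replicates 2 and 3 counted as 1 Cnot2 was at −0.52, with an adjusted p of 0.414. Cnot8, a catalytic subunit of the CAF1 type, went from −0.37 on replicate 1 through −0.06 to 0.24 on replicate 3 (mean −0.06 ± 0.16), and its sign changed with the scanner's own log ratio, with scale normalization, with array weights and without replicate 1. The scaffold Cnot1 was at −0.66, 0.22 and 0.36, a mean of −0.03 ± 0.25. Mean log2 ratios of Cnot3, Cnot10 and Pan3, the regulatory subunit of the Pan2-Pan3 nuclease, were −0.07, −0.06 and −0.09. In all, 7 of 8 tested deadenylase genes had a mean below 0, with a median of −0.07 that was also the median of all decay genes. Of these 7, Cnot6 and Cnot10 passed the filter through their control pools alone. Cnot7, the other CAF1 type nuclease, was above background on no array, and neither was Parn in HP pools, with 1 control pool above. Cnot4 was above background in at most 1 HP and 1 control pool.

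**Figure D3:**
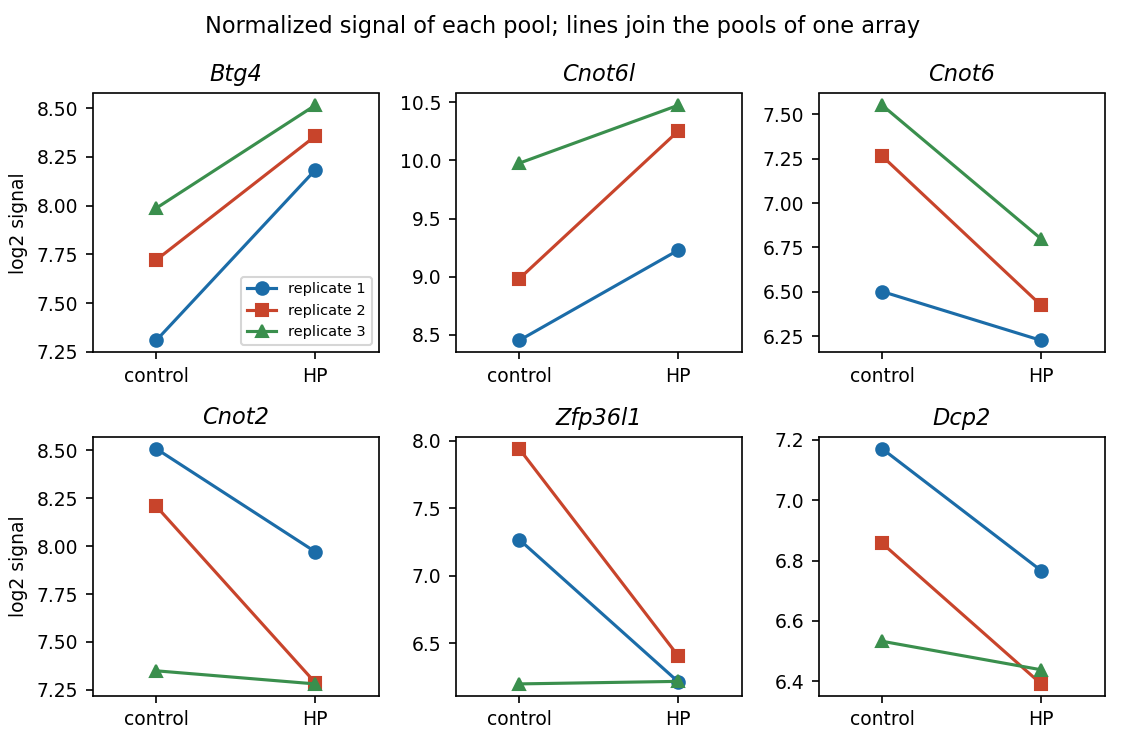
Normalized log2 signal (y axis) of each control and HP pool for the 6 decay genes with the lowest unadjusted p, with a line joining both pools of an array. The HP end of every line is the higher for Btg4 and Cnot6l and the lower for Cnot6, Cnot2 and Dcp2, while for Zfp36l1 it is the lower on replicates 1 and 2 only.

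Among the adaptors that recruit the deadenylase, Btg4 and Zfp36l1 had the largest ratios, in opposite directions. Btg4, which bridges CCR4-NOT and the translation machinery on maternal mRNA, had log2 signals of 8.18, 8.36 and 8.52 in HP pools and 7.31, 7.72 and 7.99 in control pools. All HP pools were above all control pools. The log2 ratios were 0.87, 0.64 and 0.53, with a mean of 0.68 ± 0.12 (1.60-fold, limma adjusted p = 0.175), the lowest adjusted p of the decay genes. Leaving out each array in turn gave means between 0.58 and 0.75. Counting replicates 2 and 3 as 1 gave 0.73, with an adjusted p of 0.414.

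Zfp36l1, which binds AU-rich elements and recruits CCR4-NOT, differed between arrays. Its brightest probe had log2 signals of 6.21, 6.40 and 6.22 in HP pools and 7.27, 7.94 and 6.20 in control pools. The first pair of control pools was bright, and the third control pool was as dim as the HP pools. The probe was well above background in 2 control pools and in no HP pool. The log2 ratios were −1.06, −1.54 and 0.02, with a mean of −0.86 ± 0.34 (limma adjusted p = 0.292). By the means this is 1.81-fold lower in HP embryos, but replicate 3 showed no such difference. Without replicate 3 the mean was −1.30, and without replicate 2 it was −0.52. A neighbouring probe gave −0.94, −1.27 and 0.01, or 1.67-fold lower by the means, so both probes showed replicate 3 apart from the others. With replicates 2 and 3 counted as 1 the brightest probe was at −0.91, with an adjusted p of 0.414.

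Btg1, an antiproliferative adaptor, was lower on each array at −0.49, −0.25 and −0.10, and its HP signals (9.41, 9.54 and 9.52) were all below its control signals (9.90, 9.79 and 9.63). The mean was −0.28 ± 0.13 with a limma adjusted p of 0.326, and −0.34 with replicates 2 and 3 counted as 1. Under median centring Btg1 was at −1.16, or −0.77 relative to the median of all genes, with an adjusted p of 0.0415, and over the alternatives the adjusted p ranged from 0.0415 to 0.688. In that setting 14.6% of all genes passed, nearly all of them lower, and 2 of the 40 decay genes (5%). Tob1 and Tob2, which link CAF1 nucleases to poly(A)-binding protein, were also lower on all 3 arrays, at −0.16 and −0.12. Mean log2 ratios of the adaptors Btg2 and Btg3 were 0.36 and 0.26, each with 1 array below 0. Zfp36, or tristetraprolin, was at 0.00. Zfp36l2, known as an adaptor for Cnot6l in mouse oocytes, and Zfp36l3 were above background on no array.

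All 4 tested poly(A)-binding genes had a mean below 0, with a median of −0.22, though under median centring Pabpn1 stood 0.05 above the median of all genes. Pabpc1, the main cytoplasmic poly(A)-binding protein, had log2 signals of 11.56, 11.56 and 11.24 in HP pools and 11.42, 12.08 and 11.63 in control pools. The HP pool was brighter on replicate 1 and dimmer on the others, so the groups overlapped. The ratios were 0.14, −0.52 and −0.39, with a mean of −0.26 ± 0.17 and a limma adjusted p of 0.450. With replicates 2 and 3 counted as 1 the mean was −0.16. Pabpc2, a close relative of Pabpc1, was lower on each array at −0.24, −0.40 and −0.13, with a mean of −0.26 ± 0.12 and an adjusted p of 0.324. Hybridisation between such relatives was not tested. Pabpn1, the nuclear protein that controls tail length as mRNA is made, had HP signals of 6.53, 6.39 and 6.57 and control signals of 6.74, 6.63 and 6.68. The HP pools were all below the control pools, although only 1 of them was well above background. The mean was −0.19 ± 0.11, with an adjusted p of 0.386. Pabpc4, a cytoplasmic protein of the same family, was at −0.13. Pabpc5, and a gene named Pabpc4l in the files and Gm5088 in current annotation, were above background on no array.

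Of the decapping and 5′ exonuclease genes, the decapping enzyme and a nuclear exonuclease had the largest ratios. Dcp2, the enzyme that removes the cap, was lower on each array with log2 ratios of −0.40, −0.47 and −0.09. Its signals were 6.77, 6.39 and 6.44 in HP pools and 7.17, 6.86 and 6.53 in control pools. The groups overlapped through the first HP pool, and 1 HP pool but all 3 control pools were well above background. The mean was −0.32 ± 0.13 with a limma adjusted p of 0.298. Xrn2, the nuclear 5′ exonuclease, was at −0.11 on replicate 1 and at 0.84 and 0.69 on replicates 2 and 3, the arrays whose HP pools lie close together. Its HP signals were 8.02, 8.42 and 8.22 and its control signals 8.14, 7.58 and 7.53. The mean of 0.47 ± 0.23 (adjusted p = 0.347) became 0.76 without replicate 1, 0.32 with replicates 2 and 3 counted as 1, and −0.20 under median centring, which is 0.19 above that setting's median of all genes. The scaffold Edc4 was at 0.02, −0.39 and −0.17 (mean −0.18 ± 0.13, or −0.13 with replicates 2 and 3 counted as 1). The decapping activator Dcp1a was at 0.04, 0.08 and −0.0036 (mean 0.04 ± 0.10). Under median centring it was at −0.12, which is 0.27 above that median. The scavenger enzyme Dcps had a mean of 0.01. Xrn1, the cytoplasmic 5′ exonuclease, was above background in at most 1 HP and 1 control pool, and Dcp1b and Edc3 on no array.

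The exosome subunits showed small ratios. None of the 7 tested passed even an unadjusted p under 0.05, their median was −0.07, and 5 of 7 means were below 0. Of these 5, Exosc8 passed the filter through its control pools alone and Exosc9 through its HP pools alone. Exosc6, of the ring of the complex, had the largest mean at 0.28 ± 0.18, from 0.48, 0.52 and −0.15 (limma adjusted p = 0.430), and was at −0.20 under median centring, 0.20 above that setting's median of all genes. Exosc5, also of the ring, was at 0.16, −0.33 and −0.55, a mean of −0.24 ± 0.18, or −0.14 with replicates 2 and 3 counted as 1. Exosc8 was at −0.02, −0.08 and −0.48, a mean of −0.19 ± 0.14, so that replicate 3 alone carried most of it. The cap subunits Exosc1, Exosc2 and Exosc3 had means of −0.08, −0.07 and 0.06, and Exosc9 of the ring had a mean of −0.07. Exosc10, the nuclear catalytic subunit, was above background in 1 HP pool and no control pool, Exosc4 in at most 1 of each, and Exosc7 on no array.

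Genes of nonsense-mediated decay lay on both sides of 0. Smg5, which binds phosphorylated Upf1, was lower on each array at −0.48, −0.35 and −0.07, with signals of 7.39, 7.39 and 7.22 in HP pools and 7.87, 7.74 and 7.29 in control pools. The groups overlapped because the third control pool was dim. The mean was −0.30 ± 0.13 with a limma adjusted p of 0.317. Under median centring, where 14.6% of all genes passed, Smg5 was at −0.87, or −0.48 relative to the median of all genes, with an adjusted p of 0.0463. Over the alternatives its adjusted p ranged from 0.0463 to 0.697. Upf3a, an exon junction complex partner of the pathway, was at 0.19, 0.13 and 0.40, a mean of 0.24 ± 0.12 with an adjusted p of 0.347, and at −0.55 under median centring, where it lay on the other side of the median of all genes too (relative to it −0.16). Upf1, the helicase of the pathway, was at 0.02, 0.16 and −0.03 (mean 0.05 ± 0.11), at −0.10 under median centring, 0.29 above the median of all genes there, and at −0.0035 without replicate 2. The mean of Upf2, a partner of Upf1, was −0.20. Upf3b, a paralogue of Upf3a, was at 0.97 on replicate 1 but at −0.48 and −0.30 on the others, a mean of 0.06 ± 0.34. Smg6, the endonuclease of the pathway, was above background in at most 1 HP and 1 control pool. The zinc finger gene Zfp367 and the ubiquitin ligase gene Rnf115, caught by name only, had means of 0.14 and 0.22. Zfp365 was above background on no array, and Zfp369 in 1 control pool.

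Repeated probes showed how far a single probe can be trusted. Of the tested decay genes 8 had more than 1 tested probe, and for 3 of them, Upf3b and Zfp36 included, another probe had a mean of the opposite sign. Zfp36l1 and Cnot2 kept their direction, with the other Cnot2 probe at −0.32. Btg1 and Btg2 kept it at a smaller size, with other probes at −0.10 and 0.03, and the other Pabpc4 probe was at −0.20. The probes that gave Btg4, Cnot6l and Cnot6 their values were the only tested probes of those genes. The other probes of Cnot6l and Cnot6 were above background on no array and were not tested. The other Cnot6l probe had a mean log2 intensity of 6.24, beside 9.56 for the tested one.

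**Figure D4:**
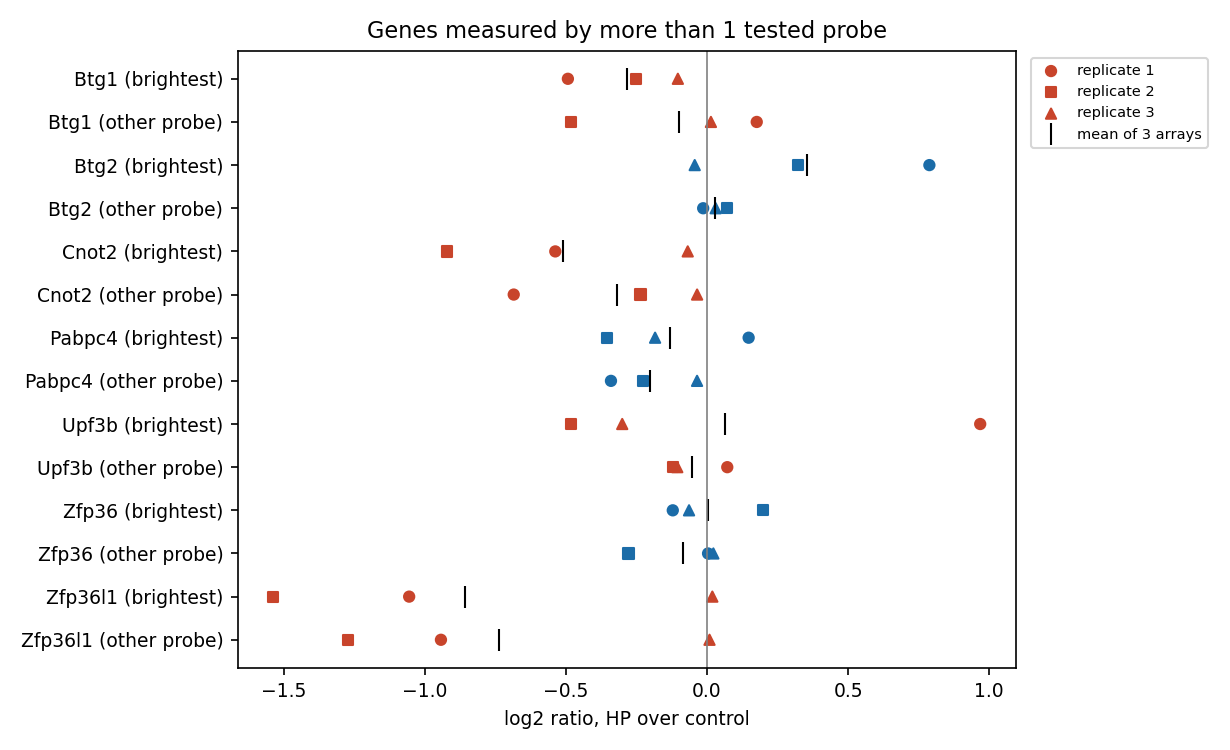
Log2 ratio of HP over control (x axis) for each tested probe of 7 of the 8 decay genes that have more than 1, with 1 symbol per array and a tick for the mean; colours only separate neighbouring genes. Both Zfp36l1 probes lie far to the left on replicates 1 and 2 and at 0 on replicate 3, while the means of the Upf3b probes lie on both sides of 0.

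Further decay factors lay on both sides of 0. In a list of 49 such genes, chosen with earlier results of these data known, 36 were tested. At an unadjusted p under 0.05, 6 were lower and 3 higher, 25% in all beside 18.5% of all genes, with a median log2 ratio of 0.03 and no adjusted p under 0.05. Pnrc2, a cofactor of decapping and nonsense-mediated decay, was lower on each array at −1.39, −1.10 and −0.66, with a mean of −1.05 ± 0.18 (limma adjusted p = 0.174). Lsm7, of the LSM ring that promotes decapping, was at −0.48. On the other side were Zcchc7, of the TRAMP-like complex that feeds the nuclear exosome, at 0.61, and Pelo, which rescues stalled ribosomes, at 0.54. Zcchc7 passed the filter through its HP pools alone (3 HP pools and 1 control pool above background). Tut4, among those lower, passed it through its control pools alone (0 HP pools and 3 control pools). The list also held Mtrr, which is no decay factor. In a list of 49 RNA-binding regulators of mRNA stability, chosen in the same way, 40 were tested. Of these 40, 5 were lower and 2 higher at an unadjusted p under 0.05. This is 17.5%, close to the 18.5% of all genes, and the median was 0.00. Ago2, the slicing Argonaute of small RNA silencing, was lower on each array at −1.08, −1.76 and −1.32, with a mean of −1.38 ± 0.17 (adjusted p = 0.174). Larp1, which binds mRNAs of the translation machinery, was at −0.90. Among those higher was G3bp2, a stress granule protein, at 0.70. Its relative G3bp1, in the same list, was lower on each array, with a mean of −0.49.

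Lists of maternal transcripts and of genes that the embryo activates are given for comparison. Whether the decay machinery acts on these genes was not tested. Both lists were chosen with earlier results of these data known, so their shares beside that of all genes are descriptions only. Of 41 listed maternal transcripts, the decay genes left out, 25 were tested. At an unadjusted p under 0.05, 8 were higher in HP embryos and 2 lower, 40% beside 18.5% of all genes, and the median was 0.22. Among those higher, Nlrp4f passed the filter through its HP pools alone (3 HP pools and 1 control pool above background). So did Nlrp2, Tcl1b2, Tcl1 and Lhx8, whose positive means enter the median. Kit, with a negative mean, passed through its control pools alone. Oog1 and Oosp1, both oocyte-specific, were at 1.48 and 1.29, and Khdc3, of the subcortical maternal complex, and Ccnb2, a cyclin, at −1.30 and −0.94. Of 29 listed genes that the embryo activates 19 were tested, with 4 higher and 3 lower by the same measure (36.8%) and a median of −0.10. Zscan4c, among those higher, likewise passed the filter through its HP pools alone (3 HP pools and 1 control pool). Tdpoz1 did too, and Hspa1a passed through its control pools alone. Tcstv3 and Ccne1, a cyclin, were both at 0.71, and Sp110 and Klf4, a transcription factor, at −0.82 and −0.52.

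The position of the decay genes against all genes moved with the processing. The share of decay genes at an unadjusted p under 0.05 was 15% with the scanner's log ratios, beside 17.8% of all genes. It was 7.14% of 28 genes, beside 23%, when probes had to be above background in both channels of all arrays. Median centring gave 45% beside 35.7%, and leaving out the filter on dim probes gave 21.4% of 56 genes beside 7.26% of 27670. The decay genes thus had the smaller share in the first pair of settings and the larger share in the second. Without the filter the groups differ in detection, since 40 of the 56 decay genes but only 7254 of the 27670 genes passed it. With the scanner's log ratios Cnot6 was at −3.65 and Zfp36l1 at −3.22, where the scanner software puts stand-in values in place of dim signals.

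**Figure D5:**
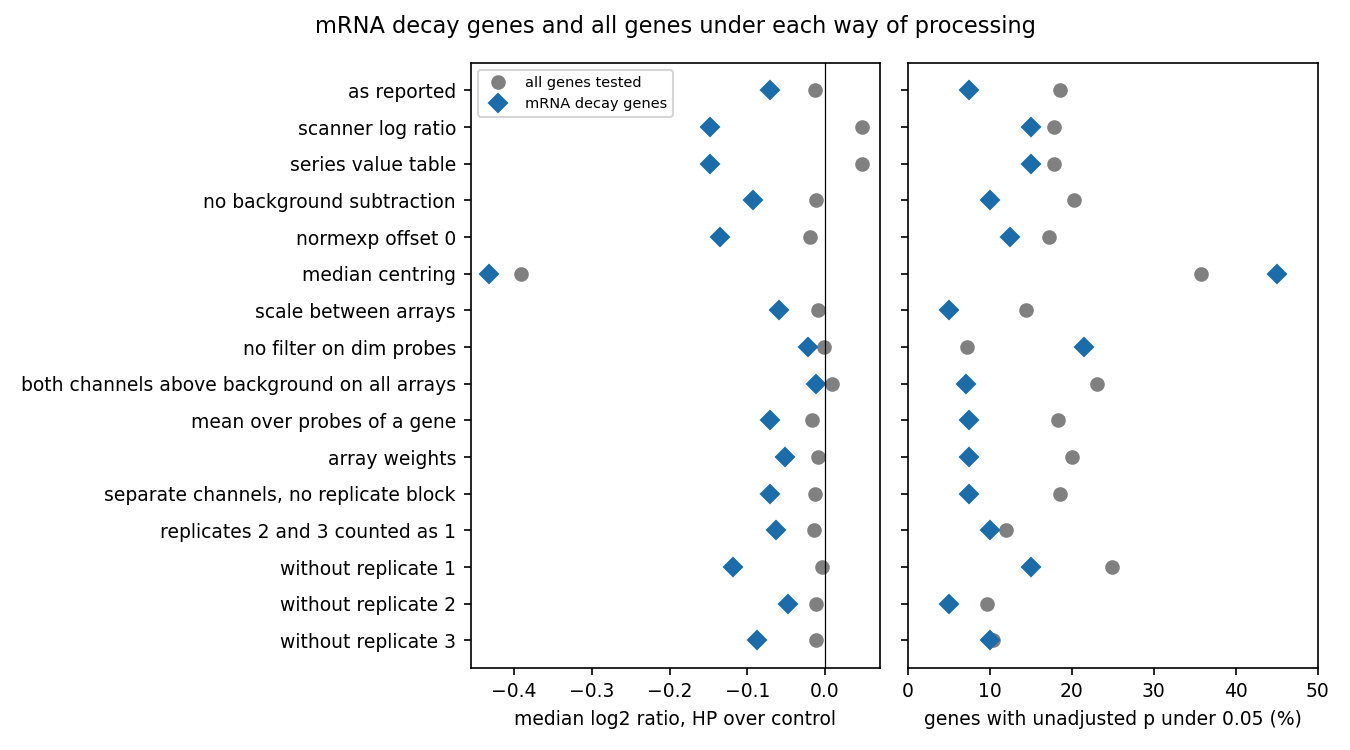
Median log2 ratio of HP over control (left, log2 units) and share of genes at an unadjusted limma p under 0.05 (right, percent) for all tested genes (grey) and decay genes (blue) under each way of processing. Median centring moves both medians, to −0.39 and −0.43, and the share of decay genes exceeds that of all genes under median centring and with no filter on dim probes.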

How the data were processed

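Mouse four-cell embryo pools were measured on 3 two-colour arrays. Per the file headers, Agilent Feature Extraction 9.5.1.1 turned the scans into spot values. Its deposited mean signals and local backgrounds are uncorrected intensity values. Its deposited ratios are log10 of processed Cy5 over Cy3, and those in the authors' series table are equal to them within 5e-10.

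Here limma 3.58.1 was used with statmod 1.5.0 and R 4.3.3. Signals were corrected by normexp (offset 50) and normalized by loess within arrays, with control spots at weight 0 and outlier spots (208, 172 and 325) left out. All log2 ratios and standard errors come from the deposited intensities by this route. A probe was kept if 2 or 3 pools of the same dye were well above background, and the brightest represented its gene. Channel signals were made comparable by Aquantile normalization. The normexp offset shrinks the ratios of dim probes. Whether their true changes are larger than the ratios given was not tested. Symbols were updated through a RefSeq gene table, which named 22951 probes through accessions, 6659 through symbols and 3109 through synonyms. The files' names were kept for 8455.

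An intercept was fitted to the ratios over arrays, the array being the pair of pools, with empirical Bayes moderation (prior degrees of freedom 2.05, residual 2) and Benjamini-Hochberg adjustment over all 7254 genes at 0.05. The fit was tested on simulated ratios, drawn independently for each gene and array. Background correction, normalization, the filter and probe choice were not simulated. All arrays share a slide and a scan. Array number limits precision.

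The genes, lists and tests were chosen with earlier results of these data known. Every tested decay gene was to be named, with values on each array for up to 3 per role by lowest p and for 12 further genes where tested, and 2 genes per direction from each list. Values of 1 decay gene and 1 listed gene are not reported here. Alternatives covered background, normalization, filter, probe choice, weights, pairing and replicates.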

Additional observations from a re-analysis of the deposited data

How the results depend on the processing

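No gene passed an adjusted p under 0.05 in the reported analysis or under the alternatives, except with median centring, where 1058 genes did (1053 of them lower). Decay genes lower at an unadjusted p under 0.05 numbered 1 as reported, beside 11.3% of all genes. They numbered 3 with the scanner's log ratios and with the series table, beside 10.1%, and 3 with a normexp offset of 0, beside 11.2%. There were 2 with no background subtraction, beside 12.3%, and 2 with replicates 2 and 3 counted as 1, beside 6.76%. Median centring gave 18 beside 35.1%, and scale normalization 0 beside 8.33%. With both channels above background it was 0 of 28 beside 13.8%, and with no filter 8 of 56 beside 4.22%. Decay genes higher (2 as reported, beside 7.25%) numbered 0 with median centring, where 47 of all genes were higher. With no filter they numbered 4 of 56, where 840 of 27670 were higher. Leaving out an array gave 0 to 3 lower, beside 5.91% to 14.1% of all genes. The median of the decay genes, −0.07 as reported, was −0.43 with median centring. Of 310 values for 21 named decay genes under 15 alternatives, 295 kept direction and call, 2 gained a call (Btg1 and Smg5, median centring) and 13 changed sign. Median centring turned Btg4 to −0.0048, Cnot6l to −0.034, Xrn2 to −0.20, Exosc6 to −0.20, Upf3a to −0.55, Dcp1a to −0.12 and Upf1 to −0.10, of which 6 of 7 stayed above that setting's median of all genes (−0.39) and Upf3a did not; leaving out an array gave −0.0035 to 0.089 for Upf1. Cnot8 became 0.061 with the scanner's log ratios and the series table, 0.034 with scale normalization and 0.011 with array weights, and leaving out an array gave −0.21 to 0.092. The causes were not tested. Fitting the channels separately, with no replicate block for the paired pools, again put 3 of 40 decay genes at an unadjusted p under 0.05 and no gene at an adjusted p under 0.05 (lowest 0.0587, limma). Dim signal limits the data: 28 of 40 decay genes were above background in both channels of all arrays.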
